A study of Mus musculus with 8 samples.

Results

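The heavy chain variable segments of the immunoglobulin locus (Ighv) were described across sorted B cell progenitors of mouse bone marrow. Members were all rows of the expression files whose symbol starts with Ighv and whose FPKM (fragments per kilobase of transcript, scaled to the mapped fragments of the library) was above 0 in at least 1 library. Of 185 Ighv rows among 52550 rows in all, 139 were members. The pre-pro-B cells came from wild type (WT) and lactoferrin knockout (Lf-/-) C57BL/6J mice, with 2 libraries of each genotype, and the pro-B cells gave 1 WT library and 2 Lf-/- libraries. The second WT pro-B library was not analysed here. Lf-/- mice lack the gene of lactoferrin (Ltf), an iron-binding protein of milk and neutrophil granules, in all tissues, and age-matched littermates served as WT controls. No mouse received a treatment, and the age was not given in the sources used here. Both populations were sorted by surface markers, pro-B cells as B220+CD43+IgM-. The methods give more mice a group than there are libraries, so it is unclear whether a library holds cells of a single mouse, and p-values measure only the spread between these libraries.

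A heavy chain variable exon is assembled in early B cells by joining a V, a D and a J segment. The recombinase RAG1 and RAG2 cuts beside the segments, a D is joined to a J before a V is added, and the cell then carries a single productive rearrangement. A rearranged V segment is transcribed together with its J and the constant region (Ighm in early B cells, Igha or an Ighg gene after class switching), at very high levels in antibody-secreting plasma cells, while unjoined V segments give low germline transcripts. FPKM of a segment therefore adds up these sources over all cells of a library and does not count rearrangements. Fewer cells that carry a segment and less RNA per cell cannot be told apart in such bulk libraries.

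All 139 members lie on the minus strand of chromosome 12 (GRCm38, 113572927 to 116010093), spread over 2.44 Mb upstream of the D segments. The annotation calls 109 of them functional V genes, of 113 in the files, and 30 of them pseudogenes, of 70. The 4 functional V genes that were listed at 0 in every library were Ighv2-7, Ighv7-2, Ighv16-1 and Ighv1-16. In all 7 libraries, 72 segments were above 0, and 9 segments were above 0 in a single library. The number above 0 was 110 and 119 across the WT pre-pro-B pair, 132 and 84 across the Lf-/- pre-pro-B pair, 109 for WT pro-B, and 107 and 113 across the Lf-/- pro-B pair.

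Segments on which the comparisons of use turn, those that led or ranked high in single libraries and Ighv1-26, which ranked high in all of them, are shown by their last 150 bases (5′ to 3′, reference transcripts of GENCODE M21), where similar segments can be told apart. Capitals run from the codon of the conserved cysteine (TGT), at which the joined region of the antibody begins, to the end of the segment.
Ighv1-81: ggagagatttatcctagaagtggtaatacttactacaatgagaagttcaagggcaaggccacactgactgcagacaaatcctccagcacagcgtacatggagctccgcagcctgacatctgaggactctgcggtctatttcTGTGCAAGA
Ighv1-50: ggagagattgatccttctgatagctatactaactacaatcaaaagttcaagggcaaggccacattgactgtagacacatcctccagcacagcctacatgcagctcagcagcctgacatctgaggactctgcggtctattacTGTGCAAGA
Ighv1-9: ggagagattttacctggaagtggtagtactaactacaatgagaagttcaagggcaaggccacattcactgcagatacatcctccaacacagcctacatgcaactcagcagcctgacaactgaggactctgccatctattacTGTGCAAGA
Ighv1-26: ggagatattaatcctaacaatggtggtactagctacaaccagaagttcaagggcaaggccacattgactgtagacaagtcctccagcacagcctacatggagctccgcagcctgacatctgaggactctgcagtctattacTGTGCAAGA
Ighv1-74: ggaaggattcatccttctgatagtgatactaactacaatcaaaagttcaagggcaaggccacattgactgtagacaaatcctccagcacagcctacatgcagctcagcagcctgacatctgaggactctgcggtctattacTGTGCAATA
Ighv4-1: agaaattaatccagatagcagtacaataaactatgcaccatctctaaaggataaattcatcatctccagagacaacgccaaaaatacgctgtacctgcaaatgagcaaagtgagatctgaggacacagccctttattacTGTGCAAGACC
Ighv5-4: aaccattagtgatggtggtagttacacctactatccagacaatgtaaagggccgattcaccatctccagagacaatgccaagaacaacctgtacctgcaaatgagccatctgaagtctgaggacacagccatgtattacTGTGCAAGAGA
Ighv5-17: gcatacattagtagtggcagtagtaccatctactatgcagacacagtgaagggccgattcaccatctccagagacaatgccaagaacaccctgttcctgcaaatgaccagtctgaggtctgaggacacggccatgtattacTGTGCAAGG
The first 5 of these belong to the Ighv1 subfamily, and over these 150 bases Ighv1-50, Ighv1-9, Ighv1-26 and Ighv1-74 differed from Ighv1-81 at 17 to 20 positions. The letters TGTGCAAGA, read on the segment's own strand within its last 16 bases, stand in 59 of the 109 functional members and in 16 of the 30 pseudogenes. Similarity limits how reads could be assigned. Of the 139 members, 72 had another segment at least 95% identical over at least 250 aligned bases, and 15 had one at least 98% identical. The closest segment was 92.9% identical for Ighv1-81 (Ighv1-85), 90.9% for Ighv1-9 (Ighv1-77), 97.2% for Ighv1-50 (Ighv1-69), 96.3% for Ighv1-74 (Ighv1-69), 96.9% for Ighv1-26 (Ighv1-18), 95.7% for Ighv5-4 (Ighv5-6), 90.6% for Ighv5-17 (Ighv5-12) and 96.4% for Ighv4-1 (Ighv4-2). Values of segments with such a near copy are uncertain to the extent that fragments were shared between them.

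The libraries were checked before the segments were compared. Ltf had 2143, 2731 and 2650 FPKM across the 3 WT libraries and 88.2 to 168 FPKM across the 4 Lf-/- libraries. The step size of low FPKM values gave depths of 11000000 to 15400000 fragments in 6 libraries, so that 1 fragment is worth 0.184 to 0.258 FPKM on a segment of the median length of 352 bases. No depth could be read from Lf-/- pre-pro-B replicate 2, which detected 12172 genes (19477 to 20250 for the others). The main counts that rest on it, or the median difference for genotype in pre-pro-B cells, are also given without it. The 18 neutrophil markers made up 27.8% to 55.9% of all FPKM. The 11 early B cell markers made up 0.00448% to 0.0879%, with Rag1 at 0 to 1.81 FPKM and Rag2 at 0 to 1.69 FPKM. The labels thus name progenitors in which the recombinase genes were at or near 0 and neutrophil transcripts were abundant, and the part of these in the segment values was not tested.

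Pre-pro-B libraries carried about 5 times as much Ighv signal as pro-B libraries. Summed over all segments, Ighv made up 1.45% and 1.49% of the FPKM across the WT pre-pro-B pair, 1.65% and 1.18% across the Lf-/- pre-pro-B pair, 0.243% for WT pro-B, and 0.271% and 0.295% across the Lf-/- pro-B pair. Every pre-pro-B library was above every pro-B library. The mean was 1.44% ± 0.194 (SD, n = 4) in pre-pro-B and 0.270% ± 0.0263 (SD, n = 3) in pro-B libraries, a ratio of 5.36. By genotype there was no separation. The WT pre-pro-B pair lay between the Lf-/- pre-pro-B pair, with means of 1.47% ± 0.0247 and 1.42% ± 0.331 (SD, n = 2 each), and WT pro-B lay just below both Lf-/- pro-B libraries.

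**Figure D1:**
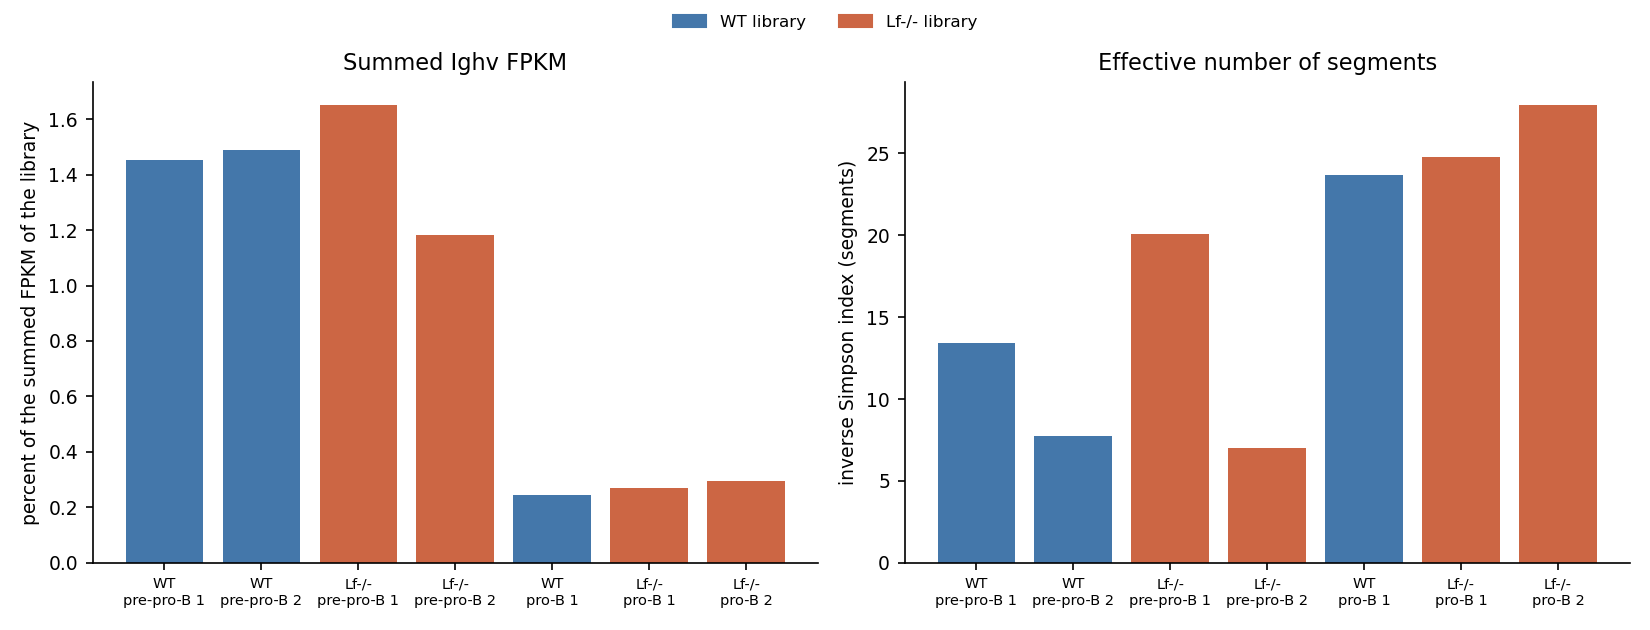
Left, the summed FPKM of all Ighv segments as a percent of the summed FPKM of the library; right, the effective number of segments (inverse Simpson index). Each bar is 1 library, so no error bars are drawn; the 4 pre-pro-B bars stand at 1.18% to 1.65% and the 3 pro-B bars at 0.243% to 0.295%, while the effective number is 7.03 to 20.1 in pre-pro-B and 23.7 to 27.9 in pro-B libraries.

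Some other parts of the antibody transcripts shared this stage order, and some overlapped between the stages. The constant genes of the heavy chain summed to 0.749% to 1.05% of the FPKM in pre-pro-B and to 0.146% to 0.387% in pro-B libraries, a ratio of means of 3.46. The kappa variable segments (Igkv) summed to 2.45% to 6.62% and 0.701% to 1.53%, a ratio of 4.18. The lambda variable segments (Iglv) overlapped, at 0.108% to 0.351% in pre-pro-B and 0.0850% to 0.160% in pro-B libraries. Of the single constant genes, Ighm overlapped, at 746 to 4830 FPKM in pre-pro-B and 385 to 960 FPKM in pro-B libraries. Ighg1 overlapped as well, at 12.2 to 48.8 and 9.21 to 81.1 FPKM in the same order. Igha, the constant gene of IgA, was at 2977 and 4332 FPKM across the WT pre-pro-B pair, 4608 and 3127 across the Lf-/- pre-pro-B pair, 566.7 for WT pro-B, and 728 and 1100 across the Lf-/- pro-B pair. Igha made up 35.6% to 74.6% of the constant gene FPKM in pre-pro-B and 35.0% to 46.5% in pro-B libraries, so transcripts of class-switched antibodies were abundant at both stages. Jchain, which links secreted IgA and IgM, was at 643 to 1509 FPKM in pre-pro-B and 125 to 523 FPKM in pro-B libraries.

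The 9 plasma cell markers summed to 0.107% to 0.237% of the FPKM in pre-pro-B and to 0.0377% to 0.110% in pro-B libraries. The ratio of means was 2.70, and the ranges overlapped only across genotypes. WT libraries had 0.107% and 0.186% against 0.0377%. Lf-/- libraries had 0.207% and 0.237% against 0.0578% and 0.110%. Prdm1, the plasma cell regulator, was at 0 to 0.65 FPKM and Sdc1 at 0.605 to 6.24 FPKM. Of the 9 markers, Jchain had the highest FPKM in every library but Lf-/- pro-B replicate 1, where Mzb1 was highest. Mzb1 was at 102 and 58.6 FPKM across the WT pre-pro-B pair, and 153 and 93.5 across the Lf-/- pre-pro-B pair. For WT pro-B it was at 38.2, and across the Lf-/- pro-B pair at 211 and 190, so its stages overlapped. Xbp1 overlapped as well, at 35.8 to 98.4 FPKM in pre-pro-B and 26.1 to 57.9 FPKM in pro-B libraries. Neutrophil markers summed to 27.8% to 42.3% in pre-pro-B and to 37.4% to 55.9% in pro-B libraries. The part of these markers in the stage difference of Ighv was not tested. Set against Ighm, the constant gene of IgM, the summed Ighv FPKM was 2.40 to 15.5 times as high in pre-pro-B and 2.07 to 5.27 times as high in pro-B libraries. Set against Cd79a, a signalling chain of the B cell receptor, it was 8.27 to 56.8 and 1.80 to 23.5 times as high. On both of these scales the stages overlapped over all libraries. Within each genotype they did not overlap against Cd79a. The values were 44.5 and 56.8 against 23.5 in WT, and 9.07 and 8.27 against 1.80 and 2.96 in Lf-/- libraries. Against Ighm the WT stages overlapped (2.40 and 15.5 against 5.27). The Lf-/- stages did not (7.73 and 5.22 against 2.07 and 2.99).

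The highest segment held 17.2% to 33.6% of the summed Ighv FPKM in pre-pro-B and 10.5% to 13.2% in pro-B libraries, and which segment this was differed between libraries. Ighv1-50 led WT pre-pro-B replicate 1 with 17.4% of the summed Ighv FPKM. Ighv1-81 led WT pre-pro-B replicate 2 with 33.6% and Lf-/- pre-pro-B replicate 1 with 17.2%. Ighv5-4 led Lf-/- pre-pro-B replicate 2 with 28.5%. In pro-B cells Ighv1-81 led the WT library with 13.2% and Lf-/- replicate 2 with 10.5%, while Ighv5-17 led Lf-/- replicate 1 with 10.7%. The 2 libraries of a group therefore had different leading segments in each of the 3 groups with 2 libraries.

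Ighv1-81 (115920279 to 115920712) lies near the far end of the locus, 2392 kb from the D segments. It was at 1583 and 3872 FPKM across the WT pre-pro-B pair, 2362 and 409 across the Lf-/- pre-pro-B pair, 267 for WT pro-B, and 17.5 and 227 across the Lf-/- pro-B pair. It was among the 10 highest segments of 6 libraries and ranked below them in Lf-/- pro-B replicate 1, where it held 0.879% of the family. Ighv1-50 (115119748 to 115120219) was far more uneven. Its 2023 FPKM for WT pre-pro-B replicate 1 stood against 27.2 for replicate 2, 89.9 and 48.4 across the Lf-/- pre-pro-B pair, 129 for WT pro-B, and 61.8 and 5.58 across the Lf-/- pro-B pair. Ighv1-74 (115802648 to 115803080), next after Ighv1-81 in WT pre-pro-B replicate 1 with 11.1% of the family, held at most 2.96% in every other library.

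Ighv5-4 (113597446 to 113597977) lies at the other end, 69.4 kb from the D segments. It was at 140 and 206 FPKM across the WT pre-pro-B pair, 303 and 2338 across the Lf-/- pre-pro-B pair, 7.69 for WT pro-B, and 52.5 and 27.1 across the Lf-/- pro-B pair. Its share of 28.5% in Lf-/- pre-pro-B replicate 2 stood against at most 2.64% elsewhere. Ighv1-42 (114937113 to 114937544) was also highest there, with 10.9% and at most 0.769% in the others. Ighv5-17 (113859149 to 113859670) was at 214 FPKM in Lf-/- pro-B replicate 1, 35.2 FPKM in replicate 2 and 8.17 FPKM in WT pro-B. Its pre-pro-B values were 117 and 185 FPKM (WT) and 131 FPKM and a listed 0 (Lf-/- replicates 1 and 2).

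**Figure D2:**
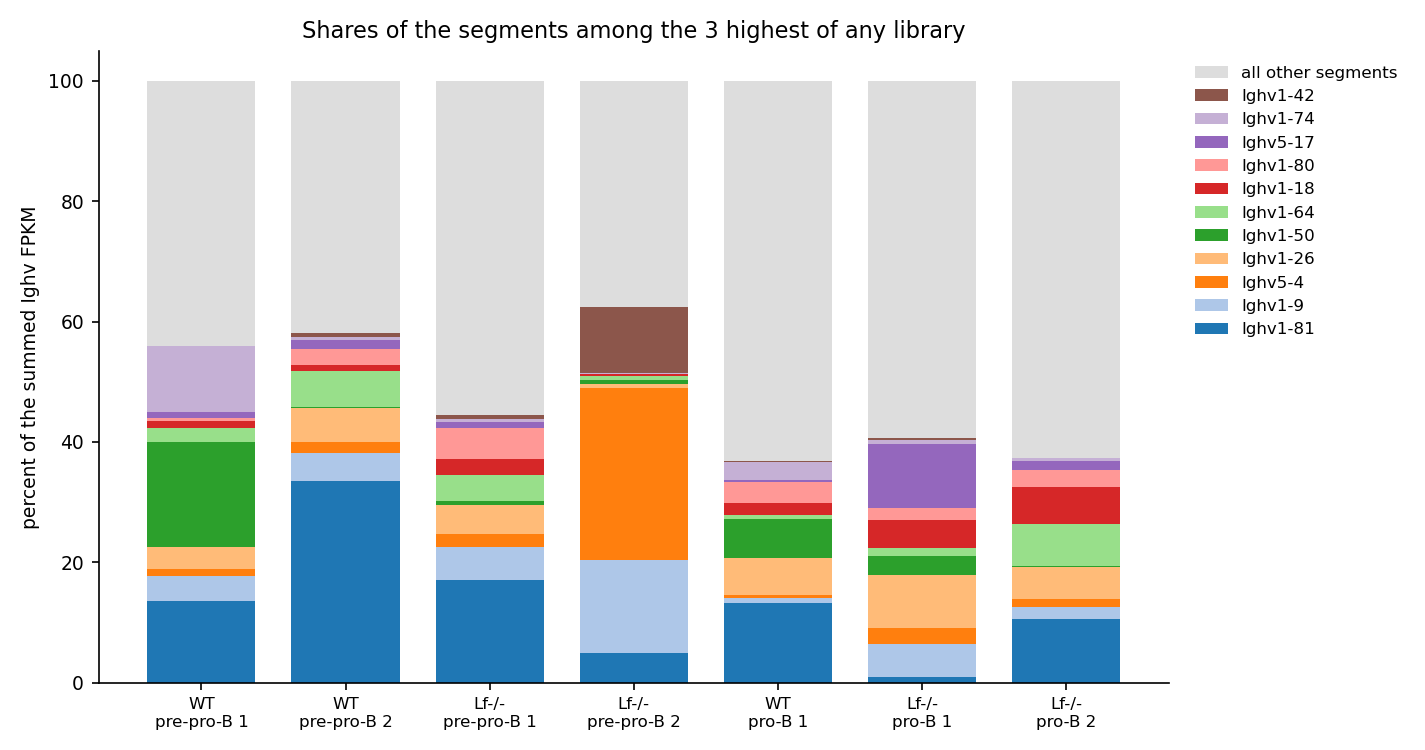
Shares of the 11 segments that were among the 3 highest of any library, as a percent of the summed Ighv FPKM of each library, with all other segments in grey. Each bar is 1 library; the colours of the broadest bands change between the bars of a group, and the 11 segments together hold 36.8% to 62.4%.

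Use was more even in pro-B libraries. The effective number of segments, the inverse Simpson index, is the number of equally used segments that would give the same concentration. It was 13.4 and 7.76 across the WT pre-pro-B pair, 20.1 and 7.03 across the Lf-/- pre-pro-B pair, 23.7 for WT pro-B, and 24.8 and 27.9 across the Lf-/- pro-B pair. The stages did not overlap, with 12.1 ± 6.06 (SD, n = 4) compared with 25.5 ± 2.22 (SD, n = 3). Without the leading segment of each library the difference between the stages was 8.95 in place of 13.4 segments and the stages overlapped. The 5 highest segments held 36.8% to 73.1% of the family in pre-pro-B and 33.0% to 36.4% in pro-B libraries. In Lf-/- pre-pro-B replicate 2, 3 segments held over 50% of the family and 10 segments 90%, compared with 5 to 12 and 29 to 45 segments in the other libraries. Genotypes overlapped, at 7.76 to 23.7 over WT and 7.03 to 27.9 over Lf-/- libraries.

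The lists of leading segments overlapped in part. Of the 10 highest segments, any 2 libraries shared 2 to 6, with a mean of 4.19 over the 21 pairs. The 3 pairs of libraries of 1 group shared 2 to 5 of 10, and the 6 pairs of different stage and genotype shared 2 to 6, so the range of pairs within a group lay inside that of unrelated pairs. In all, 29 segments were among the 10 highest of some library, 11 of them in a single library. Ighv1-26 (114788372 to 114788805) was the only segment among the 10 highest of all 7, at 418 and 659 FPKM across the WT pre-pro-B pair, 672 and 65.1 across the Lf-/- pre-pro-B pair, 127 for WT pro-B, and 175 and 115 across the Lf-/- pro-B pair. Ighv1-81 was there in 6 libraries, and Ighv1-9 and Ighv1-64 in 5 each.

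The share in common, the sum over segments of the smaller of the shares in 2 libraries, ran from 21.8% to 67.8%. WT pre-pro-B replicate 2 and Lf-/- pre-pro-B replicate 1 had the most in common, at 67.8%. The 6 pairs that include Lf-/- pre-pro-B replicate 2 had 21.8% to 29.5% in common, less than any other pair. The WT pre-pro-B and WT pro-B libraries labelled with the number 1 had 65.4% in common and shared 6 of 10 leading segments, while the same WT pro-B library had 66.3% in common with Lf-/- pre-pro-B replicate 1. Ighv4-1 (113948282 to 113948796), of the small Ighv4 subfamily, held 6.23% and 5.39% of the family in these 2 libraries and at most 1.27% in the other 5. The corresponding pairs of Lf-/- libraries had 52.3% (number 1) and 25.3% (number 2) in common. Whether equal label numbers mean a common mouse was not given in the sources used here.

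**Figure D3:**
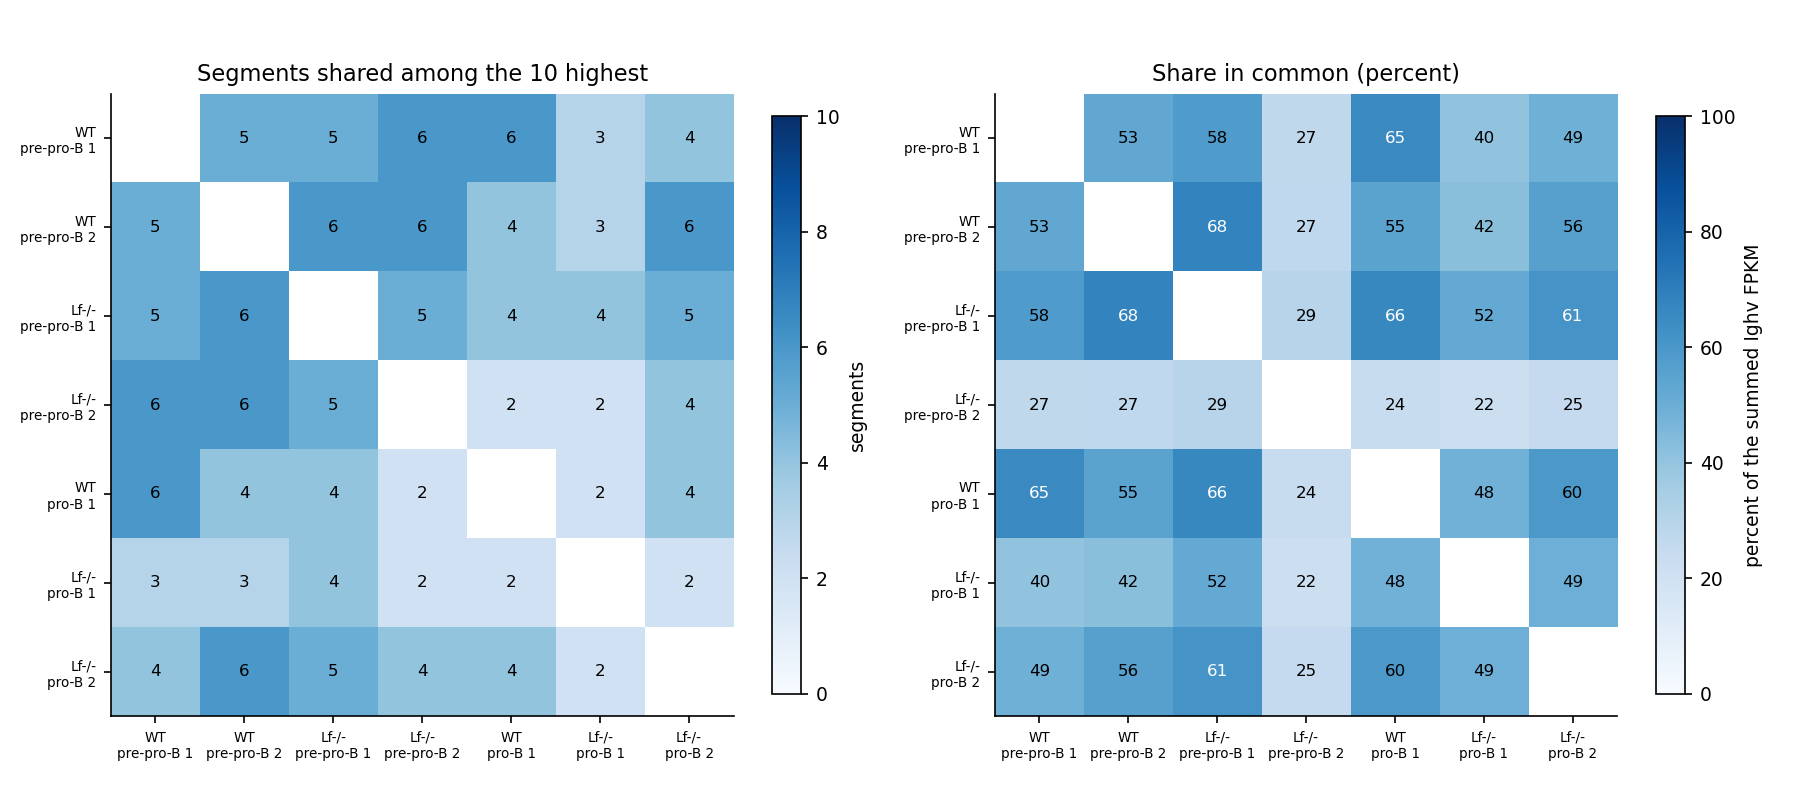
Overlap of segment use between all pairs of the 7 libraries. Left, the number of segments shared among the 10 highest of both libraries (2 to 6); right, the share in common as a percent of the summed Ighv FPKM, with the row of Lf-/- pre-pro-B replicate 2 at 21.8% to 29.5%.

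The Ighv1 subfamily supplied most of the signal in every library. Its 72 members, of 93 rows, held 81.5% and 87.0% of the family across the WT pre-pro-B pair, 78.0% and 67.7% across the Lf-/- pre-pro-B pair, 71.6% for WT pro-B, and 56.3% and 66.1% across the Lf-/- pro-B pair. The 14 members of Ighv5 came next on average, with 4.46% and 6.06%, 9.44% and 29.5%, 5.06%, and 25.2% and 8.32% in the same order. Each of the other subfamilies had a mean share of at most 2.47%. Ighv16 was not detected. The 30 pseudogenes together held 0.524% to 1.61%. The highest of them by its mean over libraries, Ighv1-41, was at 10.8 to 21.6 FPKM in 6 libraries and listed at 0 in Lf-/- pre-pro-B replicate 2.

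Segments near the D cluster, the Ighv2 and Ighv5 subfamilies, held a larger part of the family in Lf-/- libraries. Their share was 5.46% and 7.02% across the WT pre-pro-B pair, 10.5% and 29.7% across the Lf-/- pre-pro-B pair, 6.02% for WT pro-B, and 27.6% and 10.2% across the Lf-/- pro-B pair. All 4 Lf-/- values were above all 3 WT values, and the difference of means was 13.3 percentage points. By position, the 40 rows nearest to the D cluster gave 7.94% to 12.2% in WT and 12.8% to 30.0% in Lf-/- libraries, again with no overlap. Without Lf-/- pre-pro-B replicate 2 the difference was 9.91 percentage points. Without the highest segment of each library the shares were 6.62%, 10.6% and 6.94% in WT and 12.6%, 1.70%, 18.9% and 11.4% in Lf-/- libraries. The genotypes then overlapped through Lf-/- pre-pro-B replicate 2 alone, and the difference was 3.11 percentage points. The mean distance from the D segments, weighted by share, was 1523 to 1768 kb in WT and 1049 to 1597 kb in Lf-/- libraries.

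**Figure D4:**
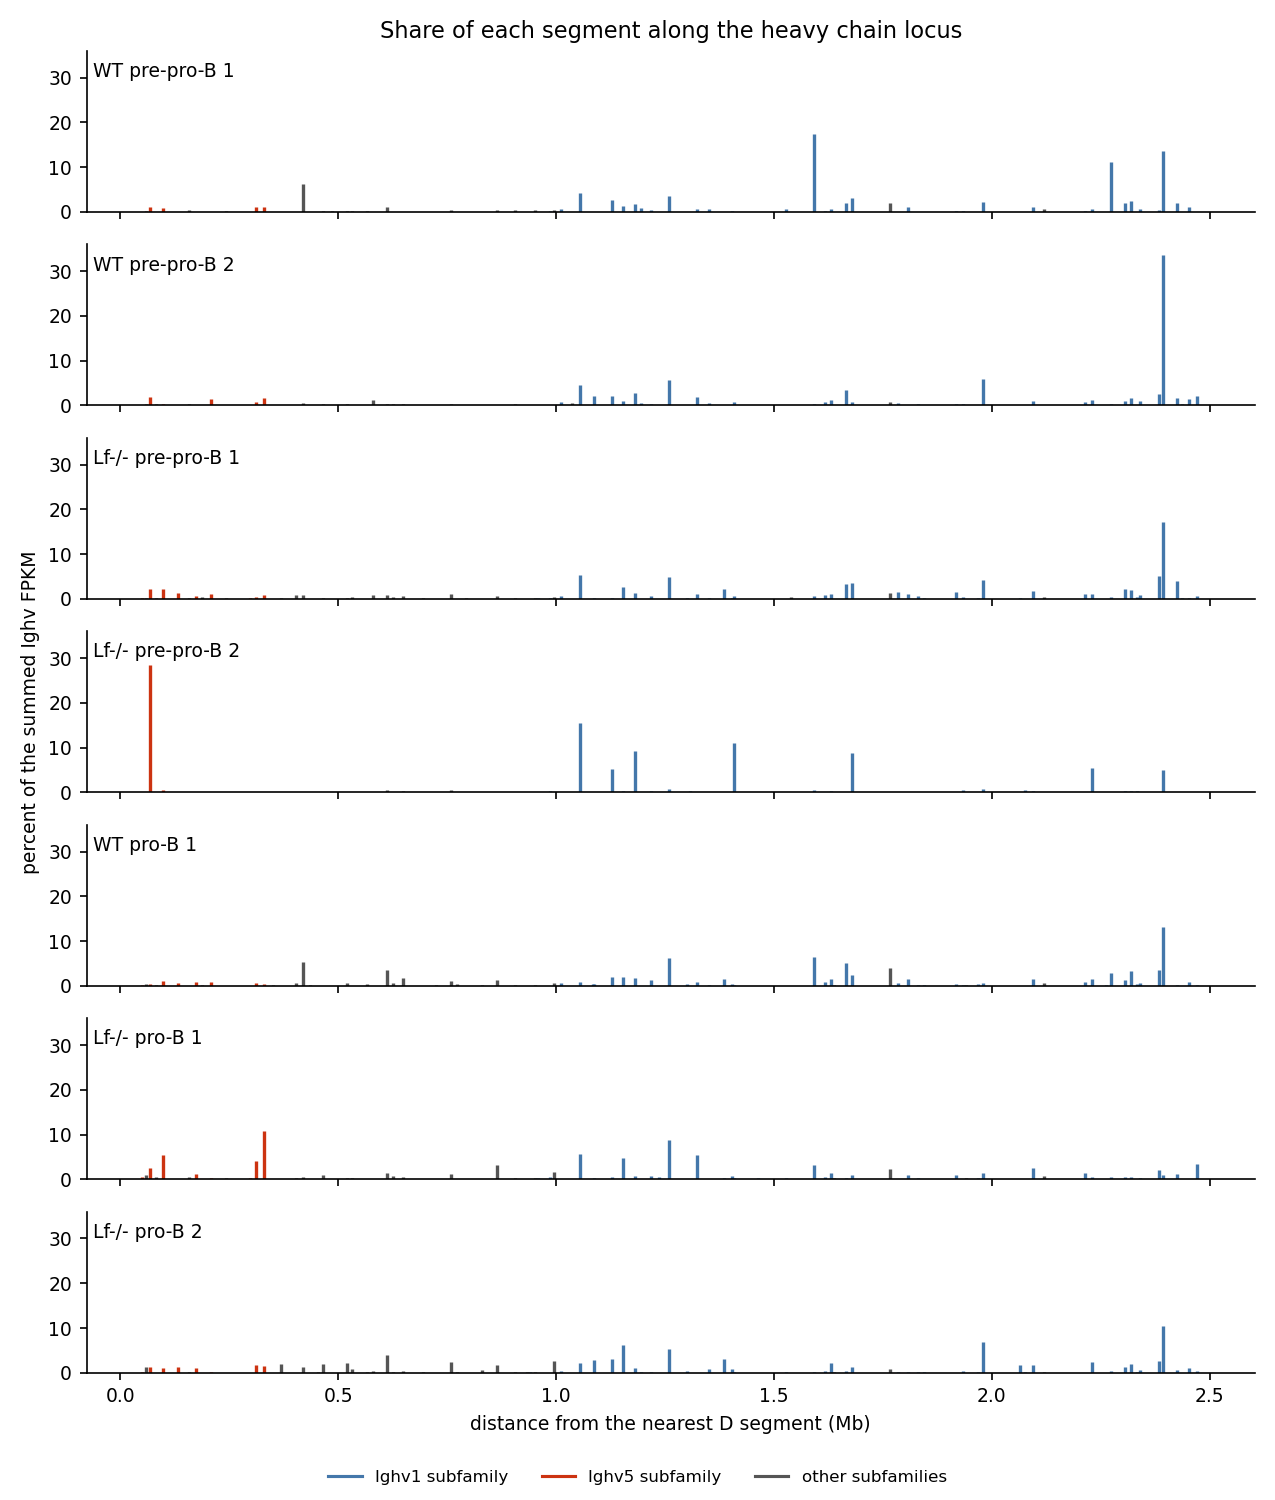
Share of each of the 139 segments (percent of the summed Ighv FPKM) against its distance from the nearest D segment in Mb, with 1 panel a library. Ighv1 lines, in blue, fill the part beyond 1 Mb, and the tallest Ighv5 lines, in red, stand at 28.5% in Lf-/- pre-pro-B replicate 2 and 10.7% in Lf-/- pro-B replicate 1.

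The stages were then compared gene by gene, in limma on log2(FPKM + 1) with genotype as a term, over the 10793 genes that reached 1 FPKM or more in 2 or more libraries. Of the 139 members, 115 passed this filter. At an unadjusted p under 0.05, 29 segments were lower in pro-B and 0 were higher. Over all genes 1.16% were lower and 1.25% were higher. The median difference was a fall of 1.0 on the log2 scale over the 115 segments and -0.03 over all genes tested. Without Lf-/- pre-pro-B replicate 2, 71 of 114 segments and 239 of 10529 genes were lower, and without the WT pro-B library 18 of 114 segments and 77 of 10738 genes. Of segments with a mean of at least 100 FPKM, 12 of 19 were lower, compared with 7 of 47 with a mean under 10 FPKM. By subfamily, 22 of 61 tested Ighv1 segments, 4 of 10 Ighv5 segments and 1 of 12 Ighv8 segments were lower.

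After Benjamini-Hochberg adjustment over all genes in limma, Ighv1-9 was the only gene called, 1 of 10793 genes or 0.00927%. Ighv1-9 (114583569 to 114584002) was at 480 and 532 FPKM across the WT pre-pro-B pair, 738 and 1271 across the Lf-/- pre-pro-B pair, 18.9 for WT pro-B, and 111 and 45.8 across the Lf-/- pro-B pair. Every pre-pro-B library was above every pro-B library. The log2 difference was -4.11 ± 0.40 (SE, adjusted p = 0.0363 in limma). Leaving out either WT pre-pro-B library, Lf-/- pre-pro-B replicate 1, the WT pro-B library or Lf-/- pro-B replicate 2 left no segment past the adjusted threshold, as did a pseudocount of 0.1 and the absence of a filter. There were 14 such segments without Lf-/- pre-pro-B replicate 2 and 2 without Lf-/- pro-B replicate 1. A filter of 1 FPKM in every library gave 4, and all of these segments were lower in pro-B. Over all genes, 35 of 10529 passed as lower and 1 as higher in the first of these fits. In the other fits 2 of 10280 and 6 of 6668 genes passed, all as lower.

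The stages did not overlap for 12 of the 115 segments, all of them lower in pro-B, compared with 0.945% of all genes in that direction. Without Lf-/- pre-pro-B replicate 2 there were 34 of 115, compared with 1.95% of all genes. Besides Ighv1-9, the largest differences of these were in Ighv5-4 (-4.38 ± 0.63, SE, adjusted p = 0.213 in limma) and Ighv1-81 (-3.64 ± 0.89, SE, adjusted p = 0.947 in limma), whose values are given above. Ighv1-19 was at 183 to 768 FPKM in pre-pro-B and 17.0 to 35.3 FPKM in pro-B libraries, and Ighv1-55 at 84.3 to 732 and 18.2 to 50.5 FPKM. Ighv1-62 and Ighv1-83 are pseudogenes of this set, with pro-B values of at most 2.21 and 1.21 FPKM. The other 5 were Ighv1-5, Ighv1-7, Ighv1-62-3, Ighv1-72 and Ighv6-6.

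**Figure D5:**
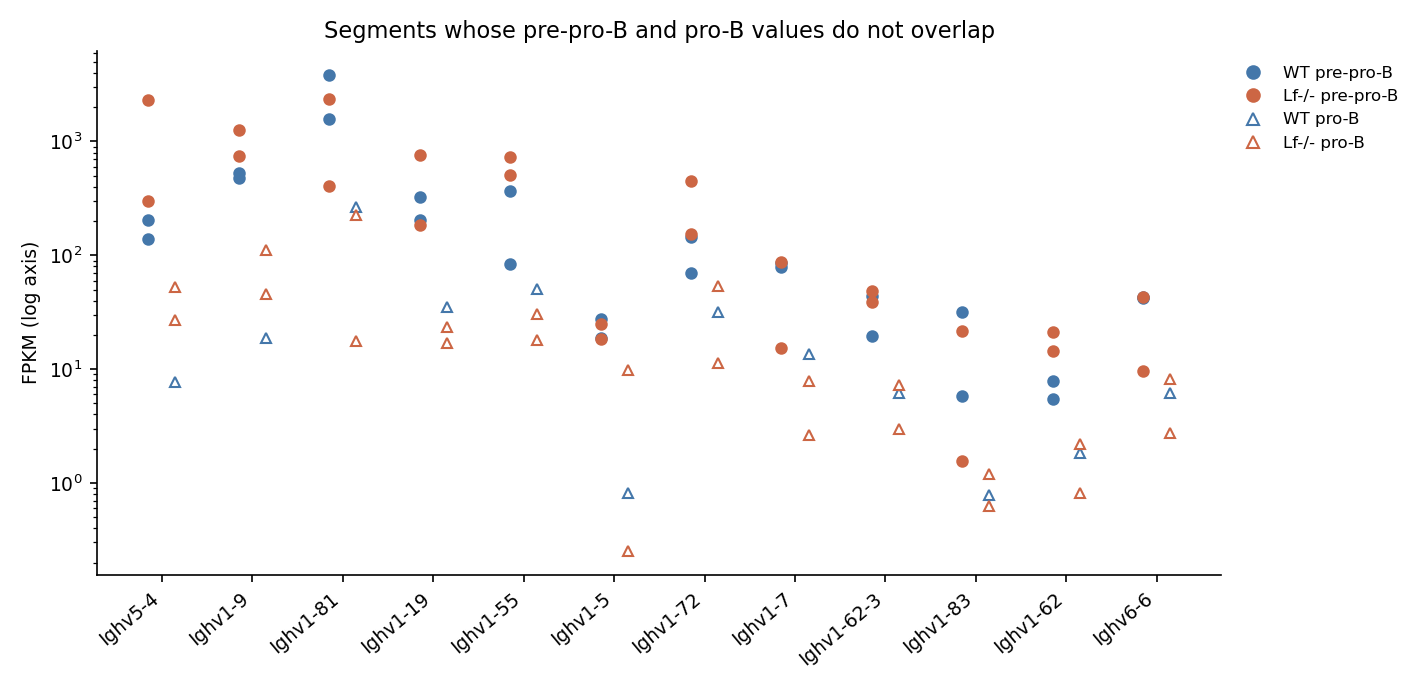
FPKM, on a log axis, of the 12 segments whose pre-pro-B values (filled circles) all lie above their pro-B values (open triangles), with WT libraries in blue and Lf-/- libraries in orange. Each point is 1 library; Ighv1-9 runs from 480 to 1271 FPKM in pre-pro-B and from 18.9 to 111 FPKM in pro-B libraries.

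The counts differed when each segment was taken as a share of the family, which divides all segments of a library by the same sum and so removes the fall of that sum. On that scale 9 of 115 segments were higher in pro-B at an unadjusted p under 0.05, 0 were lower, and none passed the adjusted threshold in limma. The heavy chain genes downstream of the V segments were also lower in pro-B. All 4 J segments passed an unadjusted p under 0.05, with the smallest p for Ighj1 (146 to 180 FPKM and 87.6 FPKM in the pre-pro-B libraries, 38.8 to 68.5 FPKM in pro-B), and 3 of 7 tested constant genes did (Igha, Ighg2c and Ighm), while Ighg3 was higher. No gene of these lists passed the adjusted threshold in limma. Among the recombination genes, 1 of 9 tested was lower (Xrcc6, a DNA end-binding subunit of Ku) and 0 were higher, and among the regulators of the locus 0 of 10 passed in either direction. Of the light chain constant genes 2 of 4 were lower, of the surrogate light chain genes 1 of 4, of the plasma cell markers 2 of 8, of the mature B cell markers 1 of 6, and both receptor chains (Cd79a and Cd79b) were. Of 10 early B cell markers 0 passed, and of 18 neutrophil markers 1 was higher.

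Genotype was compared within pre-pro-B cells over 9720 genes, of which 105 were segments. At an unadjusted p under 0.05, 8 segments were higher and 3 lower in Lf-/- cells, and 0 passed the adjusted threshold in limma. Over all genes 2.0% were higher and 0.926% were lower, and 0 passed the adjusted threshold. The median difference over the segments was -0.41 on the log2 scale, compared with 0.03 over all genes tested, and it was 0.74 without Lf-/- replicate 2. Leaving out any library left 1 in a group, so only the medians of these fits are given here. Their counts are given below with the dependence on processing, where that 1 library was assumed to vary like the others. The median over the segments was -0.50 without WT replicate 1, -0.475 without WT replicate 2 and -1.86 without Lf-/- replicate 1. Over all genes it was 0.092, 0.0015 and 0.23 in the same order, and -0.10 without Lf-/- replicate 2. Replicates of a genotype differed more than other genes did. The median absolute log2 difference between the WT replicates was 1.06 over the segments and 0.27 over all genes, and between the Lf-/- replicates it was 2.81 and 0.89.

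The largest differences with no overlap of the genotypes were higher in Ighv8-5, Ighv5-9 and Ighv1-31 and lower in Ighv1-20, Ighv1-84 and Ighv1-37, each with an adjusted p of 0.941 in limma. Ighv1-31 (114829264 to 114829697) had 1.46 and 0.0592 FPKM (WT) against 27.0 and 5.29 FPKM (Lf-/-), a log2 difference of 3.04 ± 0.85 (SE). Its pro-B values had the opposite order, 8.12 FPKM (WT) and 1.09 and 7.86 FPKM (Lf-/-). Ighv1-20 and Ighv1-37 are 98.6% identical. Ighv1-20 differed by -5.08 ± 0.87 and Ighv1-37 by -1.57 ± 0.51 (SE) on the log2 scale, with Ighv1-37 at 3.21 and 2.89 FPKM in the WT libraries against 0.860 and a listed 0 in the Lf-/- libraries. The most similar pair of members, Ighv1-62-2 and Ighv1-71 (99.7% identical), ran together, at 204 and 139 FPKM in Lf-/- replicate 1 and at 10.6 and 8.62 FPKM in Lf-/- replicate 2.

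With the stages combined and stage as a term, 8 of 115 segments were higher and 5 lower in Lf-/- libraries at an unadjusted p under 0.05, and 0 passed the adjusted threshold in limma. Over all genes 6.48% were higher and 0.695% were lower, so the part of the segments that was higher was near that of all genes. The median over all genes was 0.21, and -0.06 after median-ratio scaling, with 6 segments higher and 4 lower on that scale. There 436 of 10793 genes were higher and 370 lower. Without Lf-/- pre-pro-B replicate 2, 32 of 114 segments were higher and 3 lower, and 3 passed the adjusted threshold, while without Lf-/- pre-pro-B replicate 1, 4 of 108 were higher and 16 lower. Over all genes 929 of 10529 were higher and 84 lower in the former fit, and 2779 of 10581 were higher and 254 lower in the latter. In the former fit 119 of the 10529 genes passed the adjusted threshold as higher and 4 as lower. A single segment past an unadjusted p under 0.05 had no overlap between the genotypes. It was Ighv1-67 (115603940 to 115604376), with pre-pro-B values of 1.88 and 0.893 FPKM (WT) and 4.32 and 36.4 FPKM (Lf-/-). For pro-B it was listed at 0 (WT) and had 3.31 and 3.38 FPKM (Lf-/-). Its log2 difference was 2.40 ± 0.60 (SE, adjusted p = 0.289 in limma).

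B lineage genes moved with genotype beside these segments. Cd79a was at 261 and 203 FPKM across the WT pre-pro-B pair, 1518 and 993 across the Lf-/- pre-pro-B pair, 86.1 for WT pro-B, and 1105 and 731 across the Lf-/- pro-B pair. It was higher in Lf-/- libraries by 2.79 ± 0.34 (SE, adjusted p = 0.0273 in limma). Cd79b, its partner chain, was higher by 2.82 ± 0.30 (SE, adjusted p = 0.0136 in limma). Of the 6 tested mature B cell markers 5 were higher at an unadjusted p under 0.05 and 3 passed the adjusted threshold (Fcmr, Ms4a1 and Ighd). At an unadjusted p under 0.05, 7 of 10 early B cell markers, 3 of 8 plasma cell markers, 3 of 4 surrogate light chain genes, 2 of 4 light chain constant genes, 2 of 7 heavy chain constant genes, 3 of 9 recombination genes, 4 of 10 locus regulators and 0 of 4 J segments were higher, none was lower, and 5 of 18 neutrophil markers were lower, Ltf among them. The summed Ighv share did not move with them, and the part of these genes in the segment values was not tested. Whether the genotype difference itself changed with stage was tested as an interaction term. Of 115 segments 10 passed an unadjusted p under 0.05, compared with 2.74% of all genes, and 0 the adjusted threshold in limma.

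In pro-B cells a single WT library gives no replicate check, and no test was made. Called was a segment whose Lf-/- values were both above or both below the WT value, with a mean difference of at least 1 on the log2(FPKM + 1) scale. By this rule 27 of 115 segments were higher and 24 lower in Lf-/- libraries. Over all genes 12.4% were higher and 1.12% were lower. After median-ratio scaling 16 segments were higher and 34 lower. Over all genes 432 of 10793 were then higher and 390 lower, so the counts of all genes moved with the scaling as well. The largest rises were in Ighv14-2, Ighv7-1 and Ighv5-17 and the largest falls in Ighv1-54, Ighv1-50 and Ighv4-1. Ighv14-2 (113994469 to 113994898) had 1.47 FPKM for WT pro-B against 17.4 and 44.6 for the Lf-/- pro-B pair, while pre-pro-B libraries of both genotypes ran from 7.66 to 28.6. Ighv7-1 was listed at 0 for WT pro-B, with 1.49 and 43.8 FPKM for the Lf-/- pro-B pair. Ighv1-54 (115193675 to 115194134) had 106 FPKM for WT pro-B against 6.70 and 10.1 for the Lf-/- pro-B pair.

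Segments varied between libraries more than most genes. The SD of log2(FPKM + 1) over the 7 libraries had a median of 1.6 over 115 segments and 0.48 over 10793 genes, and it was above 1 in 77.4% and 7.88% of them. The most even segments with a mean of at least 10 FPKM were Ighv9-3, Ighv3-6 and Ighv1-53, with SDs of 0.85, 0.95 and 1.14. Ighv9-3 (114140692 to 114141122) was at 135 and 37.0 FPKM across the WT pre-pro-B pair, 119 and 41.3 across the Lf-/- pre-pro-B pair, 70.7 for WT pro-B, and 29.1 and 87.7 across the Lf-/- pro-B pair. Its stages overlapped, and its share of the family was 3.49% and 4.05% in WT pro-B and Lf-/- pro-B replicate 2.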

How the data were processed

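RNA of sorted B cell progenitors was sequenced after mirVana total RNA extraction. The authors deposited FPKM per gene for each library. The submitters' processing notes name GRCm38, TopHat, Cufflinks, HTSeq and DESeq, with versions and roles not given in the sources used here, and strand use was not given either. The unit was inferred from the values, and no counts were used. Depth was read from the steps of low FPKM values and covers counting error only. Ighv values themselves mostly do not sit on whole steps.

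Groups followed the labels. Segments were matched by identifier to GENCODE M21 (GRCm38), which gave coordinates, types and transcript sequences, and compared with blastn 2.17.0. Genes that reached 1 FPKM or more in 2 or more libraries of a comparison were fitted in limma 3.58.1 (R 4.3.3, trended eBayes) on log2(FPKM + 1), with Benjamini-Hochberg adjustment over all genes fitted. Fold changes on this scale understate changes of low genes. The fit was checked on simulated data in which every gene had the same SD, the median over all genes. Segments varied more than that, so the check does not cover error rates for them. For single values, an exact two-sided permutation test cannot go below p = 0.333 with 2 against 2 libraries or 0.0571 with 3 against 4. Sums over the members are given without p-values. Members and lists were chosen with earlier results of these data known, and the stage comparisons of summed share and effective number were added after seeing the data. Named segments were the 3 highest of each library, the 3 largest rises and falls among segments past the unadjusted threshold whose groups do not overlap (in pro-B cells among segments at least 1 apart on the log2 scale), and the 3 most even. Ighv1-62-2, Ighv1-71, Ighv1-19, Ighv1-55, Ighv1-41 and Ighv4-1 were named after their values were seen. Lists were early B, mature B, plasma cell and neutrophil markers, heavy chain constant and J genes, light chain constant genes, recombination genes, locus regulators, surrogate light chain and receptor chains. Alternatives changed the pseudocount, filter, scaling, denominator, index, block and libraries.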

Additional observations from a re-analysis of the deposited data

How the results depend on the processing

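Counts of segments at an unadjusted p under 0.05 depended on the libraries and the scale. For genotype in pre-pro-B cells, 11 segments became 6 with a filter of 1 FPKM in every library, 3 as a share of the family, 17 with all 7 libraries in 1 fit, and 27 to 58 when each library was left out in turn (58 without Lf-/- pre-pro-B replicate 1, of which 48 passed the adjusted threshold, in a fit where 1738 of 9143 genes passed that threshold as higher and 1600 as lower). Where this left 1 library in a group, that library was assumed to vary like the others. With the stages combined, 13 became 7 with a pseudocount of 0.1 (695 of 10793 genes higher and 47 lower). Without a filter there were also 7 (772 of 27443 genes higher and 382 lower). With 1 FPKM in every library there were 8 (651 of 6668 genes higher and 55 lower). As a share of the family there were 4, and 9 to 35 leaving out each library. Of the 10280 to 10738 genes in these leave-out fits, 296 to 2779 were higher and 30 to 254 lower. For stage, 29 became 9 as a share of the family, all in the opposite direction, and 18 to 71 leaving out each library. Over all genes 33 to 539 were higher and 77 to 1468 lower in the leave-out fits for stage. The cause of these shifts was not tested.

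The log2 ratio of the summed share between genotypes kept no direction. In pre-pro-B cells it was -0.07, and -0.32 to 0.17 leaving out each library (0.17 without Lf-/- replicate 2). With the stages combined it was -0.36, and -1.23 to 0.081 leaving out each library. These values had no term for stage, so the stage difference enters them. WT had 2 pre-pro-B libraries and 1 pro-B library, and Lf-/- had 2 of each. Averaged over the differences within each stage, the log2 ratio was 0.072. The genotype difference of the effective number in pre-pro-B cells was 2.97, -0.25 without the highest segment of each library, and -3.55 (without Lf-/- replicate 1) to 9.5 leaving out each library. Under all alternatives run, the stage differences of the summed share (-2.42 on the log2 scale) and of the effective number (13.4) kept their direction. So did the genotype differences, with stages combined, of the effective number and of the share of Ighv2 and Ighv5. These genotype differences had no term for stage either. The count of segments 2-fold apart in pro-B cells was 50 to 63 (51 in the report), and the mean overlap of the 10 highest segments moved by less than the SD over pairs.

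Equal label numbers were not taken as pairs. The replicate differences of the WT and the Lf-/- pre-pro-B libraries had a correlation of 0.039 over 9720 genes, and those of the Lf-/- libraries in both stages one of -0.01 over 10793 genes. With 1 WT pro-B library, the WT libraries could not be checked across stages. With a replicate block, 43 segments passed for genotype in pre-pro-B cells (18 of them adjusted). With the stages combined 15 passed, and 44 for stage (5 of them adjusted). Over all genes, 240 of 9720 were higher and 292 lower in the first of these fits (36 and 29 adjusted). With the stages combined 806 of 10793 genes were higher and 91 lower. For stage 227 genes were higher and 176 lower (0 and 8 adjusted).

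No counts were used, so no sampling error is given for single segments. With 1 or 2 libraries a group, the spread between libraries limits each comparison, and the low number of genes detected in Lf-/- pre-pro-B replicate 2 touches each genotype value of pre-pro-B cells.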
